A study of Mus musculus with 24 samples.

Results

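Glycolysis and glycogen metabolism were followed through 33 genes, chosen by name from the 25369 genes listed in each library: glucose carriers, the enzymes from hexokinase to lactate dehydrogenase, the enzymes that build and break glycogen, and the proteins that hold glycogen and its phosphatase together. The RNA came from the left quadriceps of mice killed at 25 weeks. The mice were wild type (WT) or Lama2-CMD, a model of congenital muscular dystrophy in which the gene for the laminin alpha-2 chain of the muscle basement membrane is mutated. Each genotype was sampled on 4 backgrounds, which were C57BL/6J (called B6), DBA/2J (called D2) and the strains 67 and 87, with 3 libraries in each of the 8 groups. The strain labels of the 67 and 87 mice are CMD-67 and CMD-87 for both genotypes, and the study design calls these backgrounds BXD-67 and BXD-87, names of recombinant inbred lines bred from B6 and D2. No drug or diet is named in the labels. The labels do not name the Lama2 allele, and they do not say whether WT and CMD mice were littermates. By the numbers in their labels, libraries 1 to 6 are from B6, 7 to 12 from 67, 13 to 18 from 87 and 19 to 24 from D2, with the 3 WT libraries of each strain before its 3 CMD libraries.

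Glycolysis splits glucose into pyruvate and yields ATP without oxygen. In skeletal muscle most of its fuel at the start of a contraction comes from glycogen, which phosphorylase cuts into glucose 1-phosphate once phosphorylase kinase has switched it on. Fast fibres, above all the IIb fibres that make up most of the mouse quadriceps, carry far more of these enzymes than slow and oxidative fibres. Slow and oxidative fibres hold more of the LDHB form of lactate dehydrogenase, which favours the use of lactate over its release.

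The libraries held between 32292613 and 51715975 exon reads. In 4 D2 libraries the Y-linked reads went against the sex label: WT libraries 19 and 21 are labelled male and had none or almost none, and CMD libraries 22 and 24 are labelled female and had them. By Y-linked reads, WT libraries 1, 7 and 13 and CMD libraries 4, 6, 17, 18, 22 and 24 were male. No strain thus had the same sex makeup in WT and CMD. Sex was not put in the model, and the calls lost with sex read from the Y-linked genes in the model are named with the counts of calls and the test among strains. Lama2 itself was at 40.9, 36.5 and 50.3 CPM (reads scaled to library size) in B6 WT and 23.7, 16.04 and 23.9 in B6 CMD, but the groups overlapped in 67 (24.3 to 28.4 in WT and 19.996 to 33.8 in CMD) and in D2 (23.8 to 42.5 and 23.3 to 29.0), so its RNA level does not mark the genotype in every strain. The 8 genes chosen as markers of skeletal muscle were all detected, with a summed level of at least 71283 CPM in every library. Genes of regenerating fibres separated the genotypes in each strain, with a summed level of 8.09 to 15.5 CPM in B6 WT and 58.3 to 94.6 in B6 CMD, and of 38 to 43.6 in D2 WT and 75.1 to 436 in D2 CMD.

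The 33 genes together took 4.63% to 5.97% of all exon reads in B6 WT muscle, 5.88% to 6.74% in 67, 5.81% to 6.03% in 87 and 4.98% to 5.72% in D2. In CMD muscle they took 4.10% to 4.69% in B6, 3.71% to 4.37% in 67, 3.44% to 4.83% in 87 and 3.34% to 4.89% in D2. The ranges did not overlap between the genotypes in 67, 87 and D2, and in B6 they met between 4.63% and 4.69%. Markers of fibroblasts and their progenitors summed to 425 to 966 CPM in B6 WT and 973 to 1060.4 in B6 CMD, 512 to 784 and 862 to 1247 in 67, 608 to 769.7 and 131 to 615 in 87, and 426 to 734 and 1037 to 1636 in D2. They were above WT without overlap in B6, 67 and D2, and of these 6 genes 0 were called raised in B6, 2 in 67, 0 in 87 and 1 in D2, with 1 lowered in 87. At an unadjusted p under 0.05 in edgeR, 3 of the 6 passed in B6 and 3 in 87. Of 5 fat cell markers 0 were called in any strain, with 0, 0, 1 and 3 at an unadjusted p under 0.05 in edgeR in B6, 67, 87 and D2. They summed to 144 to 529 CPM in D2 WT and 106 to 1513 in D2 CMD, and to 178 to 259 and 331 to 401 in 67. The fat cell ranges overlapped in D2 and not in 67, and overlapped in B6 and 87, at 94.8 to 509 and 326 to 453, and 118 to 1001 and 199.7 to 1036. No gene of either list was at 0 throughout a group, and their part in the share of reads was not tested. Since the samples are whole muscle, fewer cells of a type and less RNA per cell cannot be told apart. In TPM, a scale that corrects for gene length, the muscle aldolase gene Aldoa stood highest, with a median of 17318 over the 12 WT libraries. Muscle glycogen phosphorylase, Pygm, followed at 7085, and the muscle enolase Eno3 at 6473. Such abundant members weigh most in the summed share of reads, which is not a measure of each member. In 67, mean Aldoa was 21662.5 CPM in WT and 11993 in CMD, and mean Pygm was 11068 and 3993. At the other end were the WT medians of Pgm2 at 1.31 TPM, of the hexokinase Hk1 at 3.08 and of the glucose carrier Slc2a1 at 4.39, forms that muscle uses little. The carrier Slc2a4 (GLUT4), which insulin and contraction bring to the surface, stood at 341, and Hk2, the main muscle hexokinase, at 109.8.

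In the comparison of CMD with WT muscle, lowered members outnumbered raised ones in every strain. In B6, 6 members were lowered and 4 raised, against 10.4% and 8.07% of the 14789 genes tested. In 67, 14 were lowered and 4 raised, against 10.3% and 11.4%. In 87, 5 were lowered and 2 raised, against 9.38% and 11.5%. In D2, 12 were lowered and 1 raised, against 9.03% and 11.2%. Calls were made at an adjusted p under 0.05 in edgeR's quasi-likelihood test, adjusted by the Benjamini-Hochberg method over all genes tested. The labels give no litter or cage for the mice of a group, so the p-values measure only the spread between these samples, which may be partly technical. The median log2 fold change of the members was -0.12 in B6, -0.48 in 67, -0.31 in 87 and -0.68 in D2, where all genes tested had medians of 0.01, 0.00, 0.01 and 0.03. Of the counts, that of B6 dropped to 2 (Phka1 and Pygm) without CMD library 5, that of 67 to 11 without CMD library 12, and that of D2 to 7 without WT library 20. Without CMD library 22 the D2 count was 20, and without CMD library 17 the 87 count was 16. The share of all genes called in these fits is not given here. With sex from Y-linked reads in the model, the calls of Stbd1 in B6 and of Fbp2 and Ugp2 in D2 were lost, and with sex as labelled those of Stbd1 in B6 and of Eno3 and Pgm1 in D2. With only the libraries of the strain in the fit, 11 calls were lost: Gbe1 and Pgm2 in B6, Pfkm, Pgm1, Phka1 and Pygm in 87, and Aldoa, Eno3, Pfkm, Phka1 and Pygm in D2. Leaving out the 4 D2 libraries whose sex label was contradicted leaves WT library 20 and CMD library 23 as the only D2 libraries. With 1 library a genotype, that fit cannot show whether the D2 calls hold. Its D2 values were -1.31 for Eno3, -2.60 for Fbp2, -1.34 for Pgm1 and -1.56 for Ugp2. Over the strains, 24 members were called at least once, and none was raised in one strain and lowered in another. The shares of all genes for these 2 counts were not taken, so neither is set against genes in general.

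**Figure D1:**
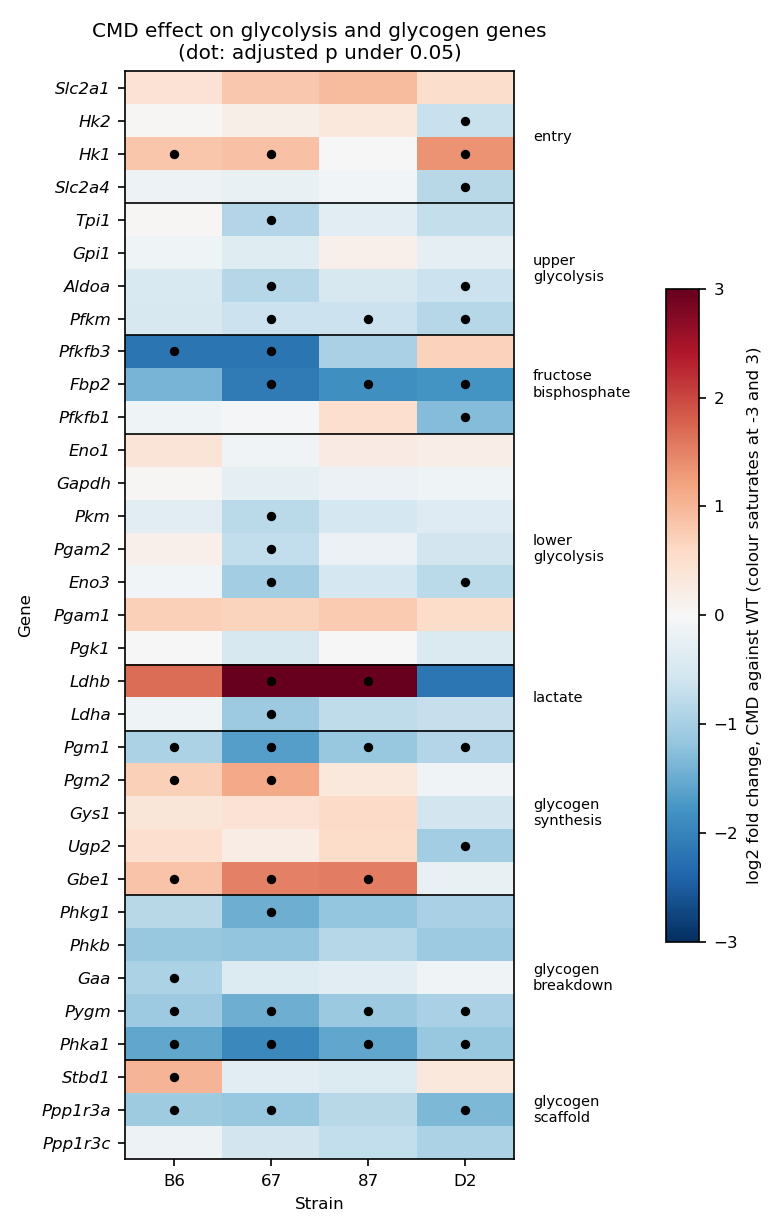
Fold change in CMD against WT muscle for the 33 members (rows, grouped by role) in each strain (columns), as a colour on the log2 scale, with a dot where the adjusted p was under 0.05. Pygm, Phka1 and Pgm1 carry a dot in all 4 strains, the row of Ldhb turns from red in B6, 67 and 87 to blue in D2, and 9 rows have no dot.

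Of the 3 members that fell in every strain, Pygm and Phka1 act in the breakdown of glycogen, and Pgm1 is described with its synthesis. Pygm, the phosphorylase that releases glucose 1-phosphate from glycogen, was lowered in B6, 67, 87 and D2. WT Pygm levels were 11754, 10357 and 8192 CPM in B6, 11892, 10876 and 10436 in 67, 10401, 11262 and 10778 in 87, and 8075, 9881 and 8518 in D2. CMD Pygm levels were 5377, 4535 and 4263 CPM in B6, 3746, 4447 and 3785 in 67, 4604, 6381 and 3928 in 87, and 5859, 2989.7 and 4686 in D2. In each strain every CMD library was below every WT library. The log2 fold change (± SE) was -1.10 ± 0.22 in B6 (adjusted p = 0.00322), -1.47 ± 0.22 in 67 (0.000275), -1.12 ± 0.22 in 87 (0.00178) and -0.97 ± 0.22 in D2 (0.00558), and no single library that was left out removed any of these 4 calls. With only the libraries of the strain in the fit, Pygm missed the threshold in 87 (-1.12, adjusted p = 0.0638) and in D2 (-0.95, 0.0606).

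Phka1, the muscle form of the regulatory alpha subunit of phosphorylase kinase, fell in the same 4 strains. WT Phka1 levels were 1277, 1349.6 and 1067 CPM in B6, 1256, 1153 and 1246 in 67, 1058, 797 and 1202 in 87, and 729, 992 and 755 in D2. CMD Phka1 levels were 556, 354 and 344 CPM in B6, 367, 285 and 306 in 67, 222, 588 and 235 in 87, and 563, 220.0 and 345 in D2. The groups did not overlap in any strain, and the lowest CMD value was 220.0 CPM, in library 23 in D2. For Phka1 the log2 fold change was -1.56 ± 0.34 in B6 (adjusted p = 0.00505), -1.93 ± 0.34 in 67 (0.000806), -1.55 ± 0.34 in 87 (0.00346) and -1.14 ± 0.33 in D2 (0.0225). In D2 the call was lost without library 20, 23 or 24 (-1.11 to -0.90), and with only the libraries of the strain Phka1 missed the threshold in 87 (-1.55, adjusted p = 0.0892) and in D2 (-1.12, 0.0587). Phkg1, the catalytic gamma subunit of muscle phosphorylase kinase, also lay lower in all CMD libraries than in all WT libraries of its strain, but passed the test in 67 alone, at -1.46 ± 0.42 (adjusted p = 0.0176), a call lost without library 12 (-1.20). Its values in the other strains were -0.83 in B6, -1.16 in 87 and -0.96 in D2, and up to 21.4% of its reads in a library matched more than 1 place.

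The beta subunit gene Phkb, described here after its values were seen, was called in no strain. WT Phkb levels were 574, 474 and 492 CPM in B6, 288, 275 and 323 in 67, 601, 389 and 469 in 87, and 430.0, 487 and 450.3 in D2. CMD Phkb levels were 293, 174 and 230.0 CPM in B6, 9.86, 177 and 207 in 67, 273, 325 and 213 in 87, and 308, 151 and 180.1 in D2. Every CMD library was below every WT library of its strain, and 1 library, number 10 in 67 CMD, stood at 9.86 CPM, far below the other 2 of its group. With all libraries the log2 fold change of Phkb was -1.14 ± 0.56 in B6 (adjusted p = 0.1603), -1.17 ± 0.56 in 67 (0.144), -0.85 ± 0.56 in 87 (0.304) and -1.09 ± 0.56 in D2 (0.167). When library 10 was left out, as each library was in turn, Phkb passed in B6 (adjusted p = 0.00492), 87 (0.0179) and D2 (0.00505) and not in 67 (log2 fold change -0.62, 0.122). The lysosomal glucosidase Gaa, which digests glycogen outside the phosphorylase route, was lowered in B6 at -0.94 ± 0.28 (adjusted p = 0.0271), a call lost without any 1 of the 6 B6 libraries (-0.99 to -0.88). Its values in 67, 87 and D2 were -0.42, -0.33 and -0.11.

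**Figure D2:**
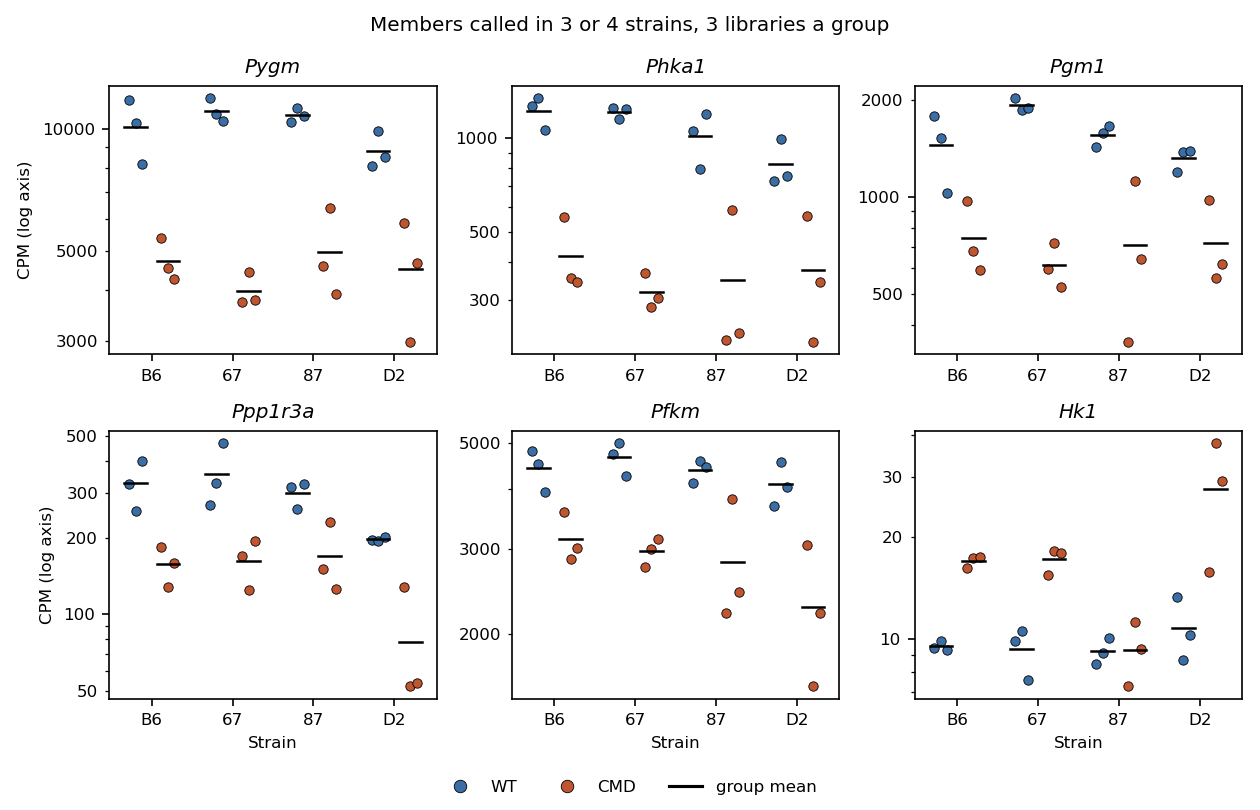
Level in every library (points, CPM on a log axis) and group mean (line) of 6 members called in 3 or 4 strains, by strain and genotype. The CMD points of Pygm, Phka1, Pgm1, Ppp1r3a and Pfkm lie below the WT points in each strain, and those of Hk1 lie above them in B6, 67 and D2.

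The genes of glycogen synthesis moved in both directions. Pgm1, the main muscle phosphoglucomutase, which turns glucose 1-phosphate and glucose 6-phosphate into one another, was lowered in all 4 strains. WT Pgm1 levels were 1786, 1523 and 1030.0 CPM in B6, 2025, 1864 and 1888 in 67, 1429, 1578 and 1663 in 87, and 1196, 1380.3 and 1383 in D2. CMD Pgm1 levels were 969.8, 679 and 592 CPM in B6, 597, 717 and 523 in 67, 354, 1123 and 643 in 87, and 976, 558 and 618 in D2. No CMD library reached the WT range of its strain. For Pgm1 the log2 fold change was -0.95 ± 0.31 in B6 (adjusted p = 0.0365), -1.65 ± 0.31 in 67 (0.00127), -1.14 ± 0.31 in 87 (0.0131) and -0.88 ± 0.31 in D2 (0.0479), and the call was lost in B6 without library 1, 2, 5 or 6 (-0.90 to -0.76) and in D2 without library 6, 10, 11, 12, 20, 21, 23 or 24 (-0.88 to -0.76). In 87 it held without any single library but not with only the 6 libraries of that strain (-1.14, adjusted p = 0.153).

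Gbe1, the branching enzyme that gives glycogen its tree shape, went the other way and rose in 3 strains. WT Gbe1 levels were 30.2, 46.2 and 87.2 CPM in B6, 19.04, 24.8 and 25.6 in 67, 27.8, 28.5 and 27.8 in 87, and 73.4, 65.8 and 102 in D2. CMD Gbe1 levels were 95.2, 112 and 87.8 CPM in B6, 58.9, 62.6 and 77.2 in 67, 106, 75.7 and 62.6 in 87, and 71.9, 68.4 and 65.6 in D2. All CMD libraries were above all WT libraries in B6, 67 and 87, whereas the D2 groups overlapped. The D2 WT values lay where the CMD values of the other strains did. For Gbe1 the log2 fold change was 0.85 ± 0.27 in B6 (adjusted p = 0.0351), 1.52 ± 0.28 in 67 (0.000978), 1.54 ± 0.28 in 87 (0.000928) and -0.23 ± 0.27 in D2 (0.567). In B6 the call was lost without library 1, 2, 4, 5 or 6 (0.57 to 0.92), and in 67 and 87 it held without any single library.

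Pgm2, a minor phosphoglucomutase that also acts on pentose phosphates, rose in B6 and 67 from a very low level. WT Pgm2 levels were 1.48, 1.35 and 1.69 CPM in B6, 1.33, 1.25 and 1.31 in 67, 1.43, 1.404 and 1.77 in 87, and 3.14, 2.703 and 2.601 in D2. CMD Pgm2 levels were 2.19, 2.73 and 2.44 CPM in B6, 3.75, 2.67 and 2.18 in 67, 2.23, 1.32 and 2.22 in 87, and 3.08, 2.51 and 2.31 in D2. CMD was above WT without overlap in B6 and 67, and the groups overlapped in 87 and D2. For Pgm2 the log2 fold change was 0.71 ± 0.23 in B6 (adjusted p = 0.0399), 1.14 ± 0.23 in 67 (0.00224), 0.32 ± 0.23 in 87 (0.342) and -0.10 ± 0.22 in D2 (0.790), and the B6 call was lost without any 1 of the 6 B6 libraries (0.64 to 0.82).

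Ugp2 makes UDP-glucose, the donor that glycogen synthase uses, and it was lowered in D2 only among the 4 tests. WT Ugp2 levels were 534, 509.7 and 672 CPM in B6, 411, 678 and 556 in 67, 618, 690.4 and 652 in 87, and 501, 763 and 487 in D2. CMD Ugp2 levels were 881, 824 and 726 CPM in B6, 539, 704 and 689.6 in 67, 1572, 658 and 662 in 87, and 337, 264 and 246 in D2. In D2 all CMD libraries were below all WT libraries. In B6 all CMD libraries were above all WT libraries, though Ugp2 was not called there, and the groups overlapped in 67 and 87. CMD library 16 of 87 stood at more than 2 times the other libraries of its group. The D2 log2 fold change was -1.05 ± 0.28 (adjusted p = 0.0129), and it was lost without library 20 or 24 (-0.98 to -0.84) and with sex from Y-linked reads in the model (-0.80, adjusted p = 0.0508). Gys1, the muscle glycogen synthase, was called in no strain, with values of 0.37, 0.43, 0.57 and -0.55 in B6, 67, 87 and D2.

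Among the proteins that tether glycogen, Ppp1r3a fell in 3 strains. It encodes the muscle subunit that brings protein phosphatase 1 to glycogen. WT Ppp1r3a levels were 326, 255 and 400.2 CPM in B6, 267, 327 and 471 in 67, 317, 259.9 and 324 in 87, and 195, 194 and 201 in D2. CMD Ppp1r3a levels were 184, 128 and 159 CPM in B6, 169.8, 124 and 194 in 67, 151, 230.2 and 125 in 87, and 128, 52.04 and 53.6 in D2. CMD lay below WT without overlap in each strain, 87 included. For Ppp1r3a the log2 fold change was -1.06 ± 0.31 in B6 (adjusted p = 0.0227), -1.13 ± 0.31 in 67 (0.0138), -0.83 ± 0.31 in 87 (0.0591) and -1.34 ± 0.31 in D2 (0.00607), with the call lost in B6 without library 3, 5 or 6 (-1.07 to -0.87) and in 67 without library 9 or 11 (-0.97 to -0.88). Stbd1, a starch-binding protein that links glycogen to membranes, was raised in B6 at 1.02 ± 0.34 (adjusted p = 0.0426), a call lost without library 2, 3, 4, 5, 6 or 10 (0.78 to 1.19) and with sex from Y-linked reads in the model (0.99, adjusted p = 0.0555). The values of Stbd1 were -0.33 in 67, -0.41 in 87 and 0.32 in D2. Ppp1r3c, another phosphatase targeting subunit, passed in no strain and ran from -0.14 in B6 to -0.95 in D2.

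The promoters of 3 members that changed hold a loose form of the site of the MEF2 factors, which drive many muscle genes. The form searched was CTA and TAG with any 4 bases between them, whereas the known site has A or T at those 4 places. The search covered 300 bases around the start of each gene (250 before and 50 after, RefSeq, build GRCm38.p6) for 32 of the 33 members (47 windows, as some have several starts), on both strands, and Slc2a4 had no entry. The loose form was in 3 of the 47 windows (6.38%), 1 for each of 3 members, and in 3.69% of 32851 promoter windows. Whether it bears on the changes of these members was not tested. With A or T alone at the 4 places, a form added after the matches were seen, it was in 1 window (2.13%), that of Ppp1r3a, and in 0.557% of all windows. The 250 bases before the start are shown for these 3, because Phka1 fell in 4 strains, Ppp1r3a fell in 3 and Ldhb rose in 67 and 87 while sharing the loose form, which is in capitals. All 3 genes lie on the minus strand, at chrX:102644247-102644496, chr6:14755275-14755524 and chr6:142507958-142508207.
Phka1: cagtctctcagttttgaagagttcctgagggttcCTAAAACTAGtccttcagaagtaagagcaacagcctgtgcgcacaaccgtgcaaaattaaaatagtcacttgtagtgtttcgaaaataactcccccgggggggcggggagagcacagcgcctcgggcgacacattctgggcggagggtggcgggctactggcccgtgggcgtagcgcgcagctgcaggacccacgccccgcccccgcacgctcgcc
Ppp1r3a: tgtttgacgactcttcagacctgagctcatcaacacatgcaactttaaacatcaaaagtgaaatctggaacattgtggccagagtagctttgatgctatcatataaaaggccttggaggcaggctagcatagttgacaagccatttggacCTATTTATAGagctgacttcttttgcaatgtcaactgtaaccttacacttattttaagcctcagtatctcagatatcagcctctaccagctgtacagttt
Ldhb: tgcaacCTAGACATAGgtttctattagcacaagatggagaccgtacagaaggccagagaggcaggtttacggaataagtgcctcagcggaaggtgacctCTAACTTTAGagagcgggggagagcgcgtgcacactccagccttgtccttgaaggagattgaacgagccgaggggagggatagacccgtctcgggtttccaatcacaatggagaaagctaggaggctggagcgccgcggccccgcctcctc
The pattern begins 216 bases before the start of Phka1, 100 before that of Ppp1r3a, and 244 and 151 before that of Ldhb. A match describes the letters only. Of the other patterns searched on both strands, CANNTG (E box) was in 37 of the 47 windows (78.7%) and in 72.3% of all windows. ACGTG (core of the HIF site) was in 21 (44.7%) and in 19.6%, and TATAAA in 4 (8.51%) and in 13.6%. ACGTG is in none of the 3 windows of Phka1, Ppp1r3a and Ldhb.

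At the entry of glucose, Hk1 and Hk2 went different ways. Hk1, the hexokinase of most tissues, rose in B6, 67 and D2. WT Hk1 levels were 9.44, 9.896 and 9.28 CPM in B6, 9.87, 10.6 and 7.59 in 67, 8.46, 9.13 and 10.1 in 87, and 13.3, 8.71 and 10.3 in D2. CMD Hk1 levels were 16.1, 17.4 and 17.4 CPM in B6, 15.4, 18.1 and 17.9 in 67, 7.26, 11.2 and 9.37 in 87, and 15.8, 37.9 and 29.1 in D2. CMD was above WT without overlap in those 3 strains, and the 87 groups overlapped. For Hk1 the log2 fold change was 0.83 ± 0.23 in B6 (adjusted p = 0.0188), 0.88 ± 0.23 in 67 (0.0118), 0.01 ± 0.23 in 87 (0.985) and 1.36 ± 0.23 in D2 (0.000794), with the call lost in B6 without library 2, 3 or 5 (0.83 to 0.87) and in 67 without library 9 (0.74). Markers of macrophages, which express Hk1, were raised for 1 of 8 genes in B6, 3 in 67, 1 in 87 and 4 in D2, with none of the 8 at 0 throughout a group. Their summed level was 41.5 to 133 CPM in B6 WT and 105 to 153 in B6 CMD, and 47.8 to 81.4 in 67 WT and 104 to 153 in 67 CMD. It was 50.9 to 88.5 CPM in D2 WT and 83.6 to 263 in D2 CMD, and 58.8 to 113 in 87 WT and 59 to 98.1 in 87 CMD. Their part in the Hk1 result was not tested.

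Hk2, the insulin-responsive hexokinase of muscle, fell in D2. WT Hk2 levels were 305, 352 and 403 CPM in B6, 338, 348 and 317 in 67, 264, 279 and 326 in 87, and 328, 329.8 and 342 in D2. CMD Hk2 levels were 393, 342 and 355 CPM in B6, 342, 459 and 339 in 67, 275, 427 and 375 in 87, and 214, 172 and 239 in D2. The 3 D2 CMD libraries were the lowest of all 24, and the groups overlapped in the other 3 strains. The D2 log2 fold change was -0.68 ± 0.16 (adjusted p = 0.00838) and held without any single library. It was -0.97 without the 4 D2 libraries whose sex label was contradicted, a fit with 1 D2 library a genotype. Slc2a4 was also lowered in D2, at -0.82 ± 0.16 (adjusted p = 0.00227), and had values of -0.16, -0.22 and -0.08 in B6, 67 and 87. Slc2a1 (GLUT1), the carrier of most cell types, passed in none, with values of 0.42, 0.80, 0.96 and 0.52 in B6, 67, 87 and D2.

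In the upper steps, Pfkm, the muscle phosphofructokinase and the committed step of glycolysis, fell in 67, 87 and D2. WT Pfkm levels were 4819, 4518 and 3954 CPM in B6, 4749.6, 5001 and 4258 in 67, 4128, 4581 and 4458 in 87, and 3699, 4570.1 and 4049 in D2. CMD Pfkm levels were 3582, 2866 and 3015 CPM in B6, 2759.6, 2999 and 3156 in 67, 2208, 3818 and 2452 in 87, and 3065, 1556 and 2216 in D2. CMD was below WT without overlap in all 4 strains. For Pfkm the log2 fold change was -0.49 ± 0.21 in B6 (adjusted p = 0.116), -0.65 ± 0.21 in 67 (0.0360), -0.64 ± 0.21 in 87 (0.0413) and -0.85 ± 0.22 in D2 (0.0106), and the call was lost in 67 without library 7, 8, 10, 11 or 12 (-0.70 to -0.60) and in 87 without library 13, 14, 15, 16 or 18 (-0.69 to -0.50). Aldoa, which splits fructose 1,6-bisphosphate, was lowered in 67 at -0.85 ± 0.21 (adjusted p = 0.00690) and in D2 at -0.65 ± 0.20 (0.0314), the latter lost without library 20, 23 or 24 (-0.57 to -0.53). Another entry named Aldoa, with far fewer reads, is listed under its own identifier and was not counted. Tpi1, which interconverts the triose phosphates, was lowered in 67 at -0.89 ± 0.26 (0.0196), and Gpi1, the isomerase of glucose 6-phosphate, in no strain. Tpi1 stood at 0.04, -0.31 and -0.72 in B6, 87 and D2, and Gpi1 at -0.12, -0.36, 0.14 and -0.26 in B6, 67, 87 and D2.

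Fbp2, Pfkfb1 and Pfkfb3 set the level of fructose bisphosphates around this step. Fbp2, the muscle fructose bisphosphatase that runs this step backwards, fell in 67, 87 and D2. WT Fbp2 levels were 36.3, 52.6 and 61.1 CPM in B6, 69.4, 287 and 93.1 in 67, 79.1, 130.0 and 179 in 87, and 101, 165 and 131 in D2. CMD Fbp2 levels were 21, 25.1 and 11.02 CPM in B6, 25.2, 31.8 and 45.9 in 67, 33.3, 44.4 and 30.995 in 87, and 67.1, 27.9 and 20.1 in D2. All CMD libraries were below all WT libraries of their strain, B6 included. For Fbp2 the log2 fold change was -1.39 ± 0.49 in B6 (adjusted p = 0.0532), -2.13 ± 0.50 in 67 (0.00566), -1.84 ± 0.49 in 87 (0.0129) and -1.79 ± 0.49 in D2 (0.0163). The call was lost in 67 without library 8 (-1.25), in 87 without library 15 (-1.53), in D2 without library 20, 23 or 24 (-1.65 to -1.51), and in D2 also with sex from Y-linked reads in the model (-1.40, adjusted p = 0.0756).

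Pfkfb1 and Pfkfb3 make and remove fructose 2,6-bisphosphate, the activator of phosphofructokinase. Pfkfb1 fell in D2 at -1.30 ± 0.27 (adjusted p = 0.00339). WT Pfkfb1 levels were 21.4, 38.2 and 63.1 CPM in B6, 28.2, 25.7 and 33.1 in 67, 23.7, 27.8 and 25.3 in 87, and 36.04, 34.4 and 51.1 in D2. CMD Pfkfb1 levels were 34.3, 35.8 and 43.01 CPM in B6, 26.2, 31.3 and 27.5 in 67, 33.8, 41.6 and 34.1 in 87, and 21.5, 15.98 and 11.8 in D2. In D2 the 3 CMD libraries were below the 3 WT libraries, and only WT library 1 of B6 lay as low among the rest, while in 87 CMD was above WT without overlap at 0.51 (0.191). Without the 4 D2 libraries whose sex label was contradicted the D2 value was -1.14, with 1 library left in each D2 group.

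Pfkfb3 fell in B6 and 67. WT Pfkfb3 levels were 903, 342 and 211 CPM in B6, 501, 325 and 349 in 67, 714, 426 and 273 in 87, and 129.6, 241 and 199 in D2. CMD Pfkfb3 levels were 142, 73.96 and 103 CPM in B6, 124, 75.4 and 59.99 in 67, 229, 329 and 167 in 87, and 449, 110.1 and 363 in D2. CMD was below WT without overlap in B6 and 67, and the groups overlapped in 87 and D2. For Pfkfb3 the log2 fold change was -2.19 ± 0.53 in B6 (adjusted p = 0.00937), -2.18 ± 0.53 in 67 (0.00714), -0.96 ± 0.51 in 87 (0.194) and 0.69 ± 0.51 in D2 (0.341), with the B6 call lost without library 1 or 5 (-1.97 to -1.36). The highest WT library in B6, 67 and 87 was the 1 with Y-linked reads, and in D2, where no WT library had them, the 2 CMD libraries with Y-linked reads (22 and 24) were the highest of the strain. Sex and genotype are thus partly confounded in D2. In B6 CMD, libraries 4 and 6, with Y-linked reads, were above library 5. In 87 CMD the pattern did not hold: library 16, without them, had 229 CPM, between libraries 17 (329) and 18 (167), which had them. With sex from Y-linked reads in the model the male minus female log2 difference of Pfkfb3 was 0.99 ± 0.23 (adjusted p = 0.0378), and with Slc2a1 (-0.65 ± 0.15) it was 1 of 2 members called for sex, against 1.22% of all genes. In that fit the CMD value was -0.13 in D2 (adjusted p = 0.847) and -1.15 in 87 (0.0302).

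**Figure D3:**
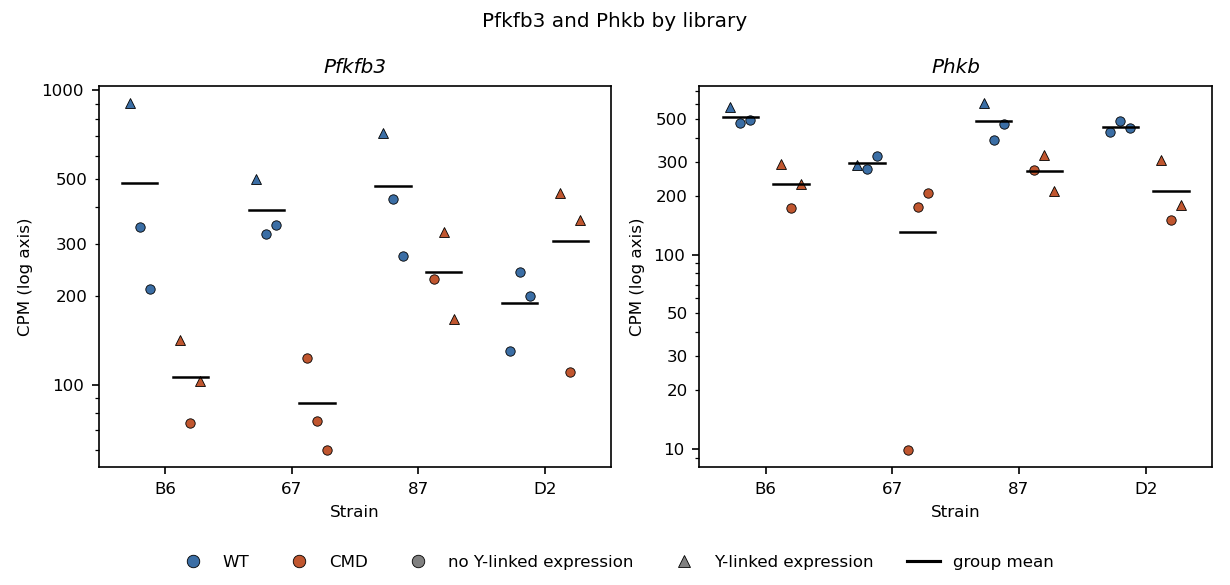
Level of Pfkfb3 and Phkb in every library (CPM, log axis) by strain and genotype, with triangles for libraries that have Y-linked expression and lines for group means. The Pfkfb3 triangles are the highest WT points in B6, 67 and 87 and the highest points of D2, but in 87 CMD a triangle is the lowest point. A single 67 CMD point of Phkb lies at 9.86 CPM.

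In the lower steps, calls were made in 67 and D2 only. Eno3, the muscle enolase, was lowered in 67 at -1.03 ± 0.27 (adjusted p = 0.0118) and in D2 at -0.80 ± 0.27 (0.0444), the latter lost without library 6, 10, 11, 20, 21, 23 or 24 (-0.80 to -0.64). Pkm, pyruvate kinase, and Pgam2, the muscle phosphoglycerate mutase, were lowered in 67 at -0.82 (0.0181) and -0.75 (0.0197). Their values in B6, 87 and D2 were -0.33, -0.53 and -0.40 for Pkm and 0.14, -0.18 and -0.56 for Pgam2. Leaving out library 12, a 67 CMD library, ended the 67 calls of Eno3 (-0.93), Pkm (-0.71), Pgam2, Tpi1 and Ldha (-0.93), and without library 8 Pgam2 and Tpi1 were lost as well (Pgam2 -0.70 and -0.68, Tpi1 -0.80 and -0.76 over these fits). Gapdh, Pgk1, Pgam1 and Eno1 were called in no strain. Gapdh, which many studies use as a reference gene, had values of 0.04, -0.26, -0.17 and -0.13 in B6, 67, 87 and D2. In the same strain order, Pgk1, the kinase that makes ATP from bisphosphoglycerate, had -0.02, -0.48, -0.02 and -0.44. The log2 fold changes of Pgam1, the mutase of most other tissues, were 0.72, 0.67, 0.78 and 0.56, and those of Eno1, the enolase of most tissues, were 0.40, -0.10, 0.24 and 0.21. Eno1 is uncertain, since only 40.6% to 47.4% of its reads were unique to it.

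Lactate dehydrogenase is a tetramer of LDHA and LDHB chains. Ldha was lowered in 67 at -1.08 ± 0.28 (adjusted p = 0.0112), and its values elsewhere were -0.13 in B6, -0.76 in 87 and -0.69 in D2. Ldhb had the largest log2 fold change of any member in 67, 87 and D2, upward in 67 and 87 and downward in D2, where it missed the threshold. WT Ldhb levels were 4.47, 61.1 and 217 CPM in B6, 3.84, 14.6 and 25.03 in 67, 8.27, 26.3 and 9.58 in 87, and 236, 119 and 377 in D2. CMD Ldhb levels were 199, 334 and 371 CPM in B6, 193, 291 and 283 in 67, 403, 145 and 333 in 87, and 29.4, 82.6 and 50.4 in D2. In 67 and 87 all CMD libraries were above all WT libraries, with group means of 14.5 and 256 CPM in 67 and 14.7 and 294 in 87. In B6 the groups overlapped, with WT running from 4.47 to 217 CPM, and in D2 all CMD libraries were below all WT libraries. For Ldhb the log2 fold change was 1.68 ± 0.84 in B6 (adjusted p = 0.169), 4.14 ± 0.93 in 67 (0.00444), 4.32 ± 0.94 in 87 (0.00346) and -2.17 ± 0.85 in D2 (0.0764). The B6 value of Ldhb passed without WT library 3 (3.22, adjusted p = 0.0324) and with sex from Y-linked reads in the model (2.74, 0.0225). The D2 value passed when the 6 D2 libraries were fitted alone (-2.14, 0.0355), with sex as labelled (-3.18, 0.0204) and without B6 WT library 1 or 3 (-2.20 in both). It was -1.24 (0.281) with sex from Y-linked reads, and -0.56 without the 4 D2 libraries whose sex label was contradicted, which leaves 1 in each D2 group. Ldhb made up 0.182% to 1.16% of Ldha and Ldhb TPM together in 67 WT and 13.8% to 25.6% in 67 CMD, but 7.25% to 21.5% in D2 WT and 2.15% to 11.5% in D2 CMD.

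Ldhb and Gbe1 ran beside the myosins of IIx and IIa fibres in WT muscle. The summed level of Myh1 (IIx) and Myh2 (IIa) was 137.9, 4133 and 11340 CPM in B6 WT libraries 1, 2 and 3, in the same order as their Ldhb. It was 117 to 1679 CPM in 67 WT, 647 to 1209.7 in 87 WT and 7885 to 16700.2 in D2 WT. In CMD muscle it was at least 6789.8 CPM in every strain. In D2 CMD, Gbe1 at 65.6 to 71.9 CPM lay within the range of the other CMD libraries, 58.9 to 112, but Ldhb did not follow the myosins: the 3 libraries held 6789.8 to 28425 CPM of these myosins and only 29.4 to 82.6 CPM of Ldhb. Of 9 genes listed for fast IIb fibres, not all of them particular to that type, 5 were called lowered in B6, 9 in 67, 5 in 87 and 1 in D2. Their summed level was 213574 to 221308 CPM in 67 WT against 75919 to 93973 in 67 CMD and 135369 to 165876 in D2 WT against 76798 to 138784 in D2 CMD, with 176148 to 218739 against 85421 to 112998 in B6 and 179631 to 194973 against 91165 to 143921 in 87. Of 9 slow fibre genes, 8 were raised in 67, 4 in 87, 2 in B6 and 0 in D2, and they summed to 34.2 to 57 CPM in 67 WT, 432 to 945 in 67 CMD, 122 to 2850.5 in D2 WT and 265 to 1728 in D2 CMD. No gene of these lists was at 0 throughout a group. The part of fibre makeup in the member results was not tested.

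**Figure D4:**
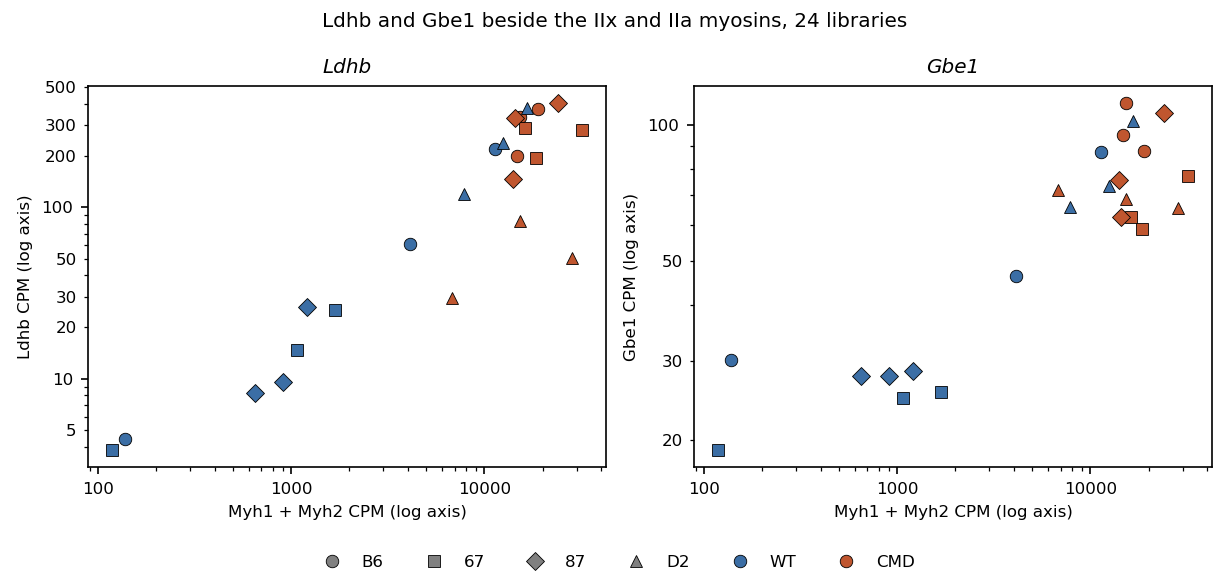
Ldhb and Gbe1 (CPM, log axes) against the summed level of the IIx and IIa myosins Myh1 and Myh2 in the 24 libraries, with shapes for strains and colours for genotype. The 67 and 87 WT libraries lie at the lower left, most CMD libraries at the upper right, and the 3 D2 CMD libraries (triangles) lie below the other CMD libraries for Ldhb.

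Ratios of paired forms within a library were taken for 6 pairs, and they are given with no test. The Eno3 to Eno1 ratio (mean and range of 3 libraries) in 67 was 126 (98.8 to 158) in WT and 65.6 (59.6 to 73.6) in CMD. Its ranges overlapped in B6 (106 to 123 in WT and 69.3 to 108 in CMD), 87 (83.3 to 144 in WT and 48.5 to 91.9 in CMD) and D2 (93.9 to 191 in WT and 46.3 to 95.3 in CMD). Pgam2 to Pgam1 in 67 was 268 (244 to 301) in WT and 101 (91.6 to 108) in CMD, and the ranges overlapped in B6 (132 to 235 in WT and 92.2 to 152 in CMD), 87 (134 to 251 in WT and 73.4 to 188 in CMD) and D2 (85.8 to 182 in WT and 37.6 to 90.2 in CMD). For both pairs the groups were apart in 67 alone.

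The Hk2 to Hk1 ratio in D2 was 33.4 (25.8 to 39.6) in WT and 9.18 (4.77 to 14.2) in CMD. It was lower in CMD without overlap in B6 (33.9 to 45.4 in WT and 20.6 to 25.5 in CMD) and 67 (34.4 to 43.7 in WT and 19.8 to 26.5 in CMD) too, but higher in 87 (31.98 to 33.8 in WT and 39.6 to 41.9 in CMD). Slc2a4 to Slc2a1 was lower in CMD without overlap in B6 (76.4 to 91.7 in WT and 46.2 to 70.4 in CMD), 67 (73.8 to 102 in WT and 35.2 to 58.2 in CMD) and 87 (62.8 to 78.5 in WT and 21.2 to 58.7 in CMD), and its D2 ranges overlapped (74.9 to 87.8 in WT and 19.4 to 81.9 in CMD). Ldha to Ldhb was lower in CMD without overlap in 67 (85.3 to 547 in WT and 2.91 to 6.26 in CMD) and 87 (70.03 to 201 in WT and 1.72 to 10.2 in CMD). Its ranges overlapped in B6 (5.499 to 386 in WT and 3.18 to 7.54 in CMD) and in D2, where the mean was higher in CMD, at 7.26 (3.65 to 12.8) in WT and 21.7 (7.702 to 45.4) in CMD. Pfkfb1 to Pfkfb3 was higher in CMD without overlap in 67 (0.139 to 0.235 in WT and 0.525 to 1.14 in CMD) and 87 (0.0823 to 0.229 in WT and 0.313 to 0.504 in CMD). It overlapped in B6 (0.0587 to 0.739 in WT and 0.597 to 1.199 in CMD) and in D2, where the mean was lower in CMD, at 0.559 (0.353 to 0.689) in WT and 0.186 (0.0804 to 0.359) in CMD.

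Whether the CMD effect differed among the 4 strains was tested directly. It did for 6 members, Ldhb (adjusted p = 0.0109), Gbe1 (0.0197), Pfkfb1 (0.0332), Ugp2 (0.0406), Hk2 (0.0450) and Pfkfb3 (0.0497), against 4.67% of all genes. Pygm, Phka1 and Pgm1, lowered in every strain, had adjusted p of 0.6095, 0.6095 and 0.508 in this test, which does not show that they moved alike. Members differed only in pairs that included D2, among the 6 pairs tested. In D2 against 87, 7 members differed, against 7.9% of all genes: Ldhb by -6.49 ± 1.26 on the log2 scale, Pfkfb1 by -1.81 ± 0.38, Gbe1 by -1.77 ± 0.38, Ugp2 by -1.61 ± 0.39, Gys1 by -1.12 ± 0.29, Hk2 by -0.98 ± 0.23 and Hk1 by 1.35 ± 0.33. In D2 against 67, Ldhb (-6.31 ± 1.26) and Gbe1 (-1.75 ± 0.38) differed, against 1.28%. In D2 against B6, Pfkfb3 (2.88 ± 0.73) and Ugp2 (-1.55 ± 0.39) differed, against 3.62%. Without libraries 16 and 23, 4 members differed in D2 against 87, 5 in D2 against 67 and 2 in D2 against B6. The share of all genes in that fit is not given here. In 87 CMD, Gys1 stood at 925 CPM in library 16 and at 635 and 519.6 in the other libraries. Between B6, 67 and 87 no pair gave a member in edgeR or in DESeq2, with 6 (67 against B6), 2 (87 against 67) and 3 (87 against B6) at an unadjusted p under 0.05 in edgeR, and with 0.00676%, 0.142% and 0.00676% of all genes called. Leaving out the 4 D2 libraries with a contradicted sex label leaves 1 D2 library a genotype. Whether the differences that involve D2 hold without them could therefore not be judged. With sex from Y-linked reads in the model Pfkfb3 missed the threshold (adjusted p = 0.0630), and with sex as labelled Hk2 did (0.0534). Without those 4 libraries the D2 log2 fold changes were -1.56 for Ugp2, -0.97 for Hk2, -1.14 for Pfkfb1 and -1.17 for Pfkfb3. Without D2 WT library 21 alone, Ldhb was the 1 member that passed.

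**Figure D5:**
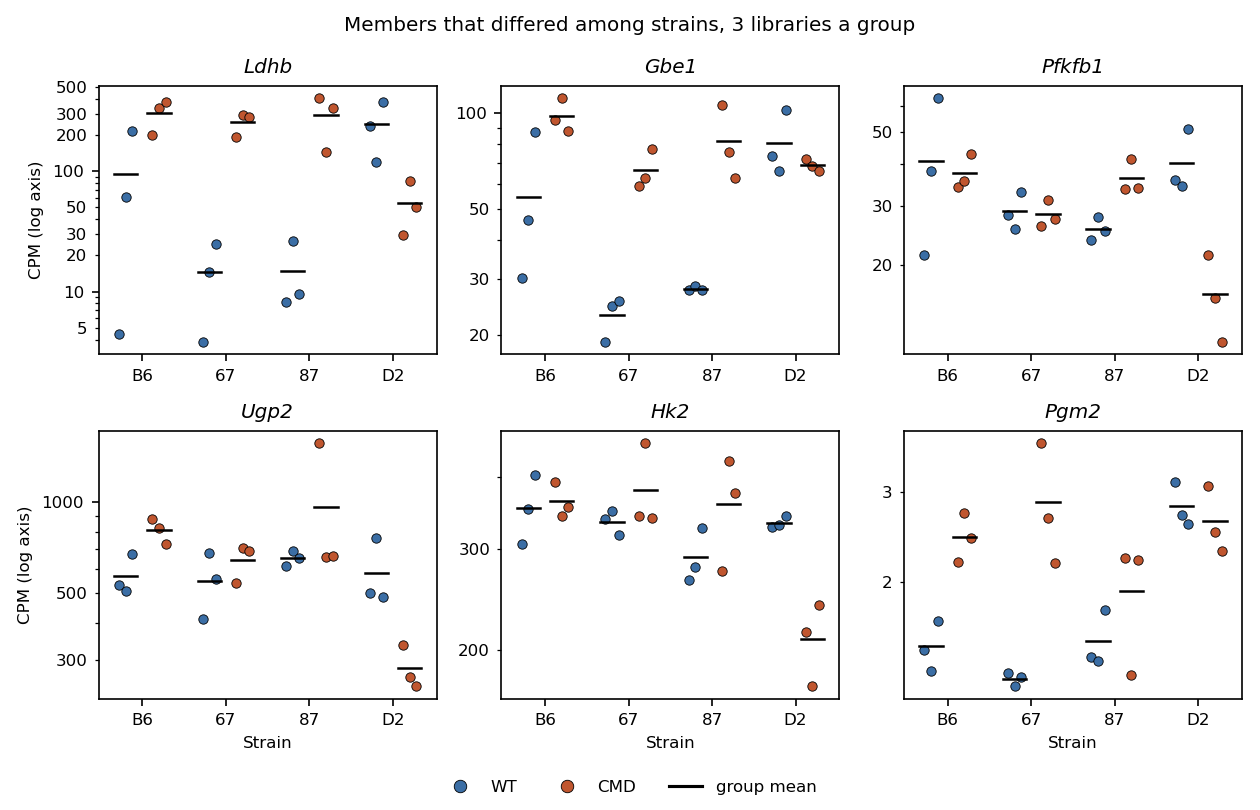
Level in every library (points, CPM on a log axis) and group mean (line) of Ldhb, Gbe1, Pfkfb1, Ugp2, Hk2 and Pgm2 by strain and genotype. D2 CMD is below D2 WT for Ldhb, Pfkfb1, Ugp2 and Hk2, and D2 WT is above 67 and 87 WT for Ldhb, Gbe1 and Pgm2.

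In WT muscle, 3 of the 33 members differed among strains, a share near the 8.66% of all genes: Gbe1 (adjusted p = 5.63e-04), Ldhb (0.00615) and Pgm2 (0.00869). All 3 were highest in D2, as the values above show, with D2 WT Gbe1 from 65.8 to 102 CPM against 19.04 to 28.5 in 67 and 87. Pgm2 was the only member to differ between D2 and B6 WT, at 0.90 ± 0.23 on the log2 scale (adjusted p = 0.0192), a share below the 7.38% of all genes. The B6 WT libraries spread widely for Ldhb and Gbe1, so that library 3 reached the D2 range and library 1 lay with 67 and 87. Without the 4 D2 libraries whose sex label was contradicted only 1 D2 WT library is left, so these WT differences could not be checked without them. With all libraries DESeq2 called 6 members, and the share of all genes in that fit is not given here.

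Of 46 further genes of glucose and glycogen handling, listed with the members, 45 were found and 40 tested. In B6, 6 were lowered and 1 raised, against 10.4% and 8.07% of all genes. The smallest p was for Mlxip, a glucose-sensing transcription factor, at -1.18 ± 0.25 (adjusted p = 0.00440). In 67, 10 were lowered and 4 raised, against 10.3% and 11.4%, led by Pfkfb4, a further fructose 2,6-bisphosphate enzyme, at -1.46 ± 0.27 (0.00111). In 87, 6 were lowered and 7 raised, against 9.38% and 11.5%, led by Ppargc1a, a coactivator of mitochondrial genes, at 1.42 ± 0.27 (0.00149). In D2, 7 were lowered and 3 raised, against 9.03% and 11.2%, led by the glucose carrier Slc2a12 at -1.28 ± 0.23 (0.00106). The CMD effect on 3 of these 40 genes differed among strains, against 4.67% of all genes: Ppargc1a, the lactate carrier Slc16a1 and the D-lactate dehydrogenase Ldhd. Ppargc1a rose in 67 (0.86) and 87 and fell in D2 (-1.03), and Slc16a1 was raised in B6, 67 and 87 (1.05, 1.81 and 1.83). In WT muscle 4 of the 40 differed, a share near the 8.66% of all genes, led by Aldoc, an aldolase of brain, at -3.26 ± 0.45 in D2 against B6 (9.56e-05).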

How the data were processed

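RNA was measured in 24 quadriceps libraries, 3 in each of 8 groups taken from the sample titles. Per the labels' protocols, total RNA was extracted with TRIzol and made into stranded mRNA libraries that were sequenced as read pairs. The genome build was GRCm39 (mm39) per the submitters' processing notes. Neither the aligner nor the counter is named: each is not given in the sources used here. Raw counts for each gene were deposited by the authors, as total exon reads and as unique exon reads. TPM values were deposited by the authors too, as values corrected for exon length, which were used only to compare levels between genes.

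Total exon reads of 14789 genes that passed filterByExpr (minimum count 10, minimum total 15) entered edgeR 4.0.16 under R 4.3.3, with TMM scaling and 1 term for each group, with no sex term because 4 sex labels were contradicted by Y-linked reads (a library was called male where 4 Y-linked genes summed to more than 5 CPM). CPM are reads scaled to the TMM-adjusted library size. Contrasts were tested with glmQLFTest and adjusted by the Benjamini-Hochberg method over all genes, with a threshold of 0.05. The model had 16 residual degrees of freedom and a mean prior of 3.74. Of the reads in a library, 97.7% to 98.2% were unique. The fits were also tested on simulated data.

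The members, the further genes, the marker lists and the alternatives were chosen with earlier results of these data known. Values in every library are given for members called in 3 or 4 strains, for the 6 with the smallest p among those that passed in the test between strains and for up to 4 that passed in WT, and for Phkb, which was added after its values were seen. Of the further genes the one with the smallest p in each strain is named, and those that differed among strains were added after their values were seen. Alternatives were a sex term as labelled or from Y-linked reads, unique reads, RLE size factors, no filter, DESeq2 1.42.0, the libraries of 1 strain or the 12 WT libraries alone, libraries 16 and 23 left out together, and each library left out in turn. Leaving out the 4 D2 libraries whose sex label was contradicted, with and without a sex term, was chosen after seeing the data. The lone D2 libraries left in each group are then assumed to vary like the other groups. Promoter sequences are from RefSeq (GRCm38.p6) and were matched by gene symbol.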

Additional observations from a re-analysis of the deposited data

Results flagged for a closer look

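The CMD effect differed among the 4 strains for 6 members by the F test of edgeR's quasi-likelihood fit. The adjusted p was 0.0109 for Ldhb, 0.01968 for Gbe1, 0.03323 for Pfkfb1, 0.04059 for Ugp2, 0.04497 for Hk2 and 0.04975 for Pfkfb3. Ldhb rose in 67 and 87 and was lower in every D2 CMD library than in every D2 WT library. Gbe1 rose in B6, 67 and 87 and had a D2 value of -0.23 on the log2 scale. Pfkfb1, Ugp2 and Hk2 fell in D2, and Pfkfb3 fell in B6 and 67. Leaving out 1 library ended the call of Pfkfb3 in 17 of 24 cases, of Ugp2 in 13, of Hk2 in 10, of Pfkfb1 in 5, of Gbe1 in 2 and of Ldhb in 0.

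Of the further genes, the same test gave an adjusted p of 0.004413 for Ppargc1a, 0.01833 for Slc16a1 and 0.02476 for Ldhd. In D2 the log2 fold change of Ppargc1a was -1.03, while B6 gave 0.21, 67 gave 0.86 and 87 gave 1.42. Slc16a1 had 1.05, 1.81, 1.83 and -0.53 in B6, 67, 87 and D2, and Ldhd 0.48, 0.52, 0.81 and -0.43.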

How the results depend on the processing

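No paired analysis was possible because the libraries of different groups share no replicate number. Of the 57 gene results called with all libraries, 57 stayed called with DESeq2, RLE size factors or unique reads, 56 with no filter, 53 with either sex term and 50 without libraries 16 and 23. With only the libraries of the strain, 37 of 48 stayed called. Leaving out the 4 D2 libraries whose sex label was contradicted leaves 1 library in each D2 group, so no count of calls kept is given for it. In that fit the B6 calls of Gbe1, Pgm2 and Stbd1 were lost. None of the 48 results that compare CMD with WT in a strain changed direction. The others are F tests among strains, which have no direction.

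The count of members called in 87 moved from 7 to 11 with sex as labelled, 14 with sex from Y-linked reads, 12 with DESeq2 and 3 with only the libraries of the strain. Without the 4 D2 libraries it was 12, and 14 with a sex term besides. The D2 count of 13 cannot be compared with a fit without the 4 D2 libraries, where each D2 group holds 1 library. Members that differed among strains moved from 6 to 10 with DESeq2. Differences over the 6 pairs of strains moved from 11 to 20 with sex as labelled and to 22 with DESeq2. Members that differed in WT moved from 3 to 6 with DESeq2 or the 12 WT libraries alone, 5 without libraries 16 and 23, 0 without the 4 D2 libraries and 1 with a sex term besides. The share of all genes called in each alternative fit is not given here, so the shifts are not read as particular to the members. The cause of these shifts was not tested.

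With each library left out in turn, the counts ran from 2 to 12 in B6, from 11 to 19 in 67, from 5 to 16 in 87 and from 7 to 20 in D2. They ran from 1 to 8 for the difference among strains, from 7 to 19 over the pairs and from 2 to 5 in WT. For these fits too the share of all genes called is not given. The D2 value of Pfkfb3, which was not called, changed sign from 0.69 to -0.13 with sex from Y-linked reads and to -1.17 without the 4 D2 libraries, with or without a sex term. With 3 libraries a group, a member not called may still differ.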

Other observations

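Phkb in 67 CMD library 10 stood at 9.86 CPM, where the other 2 libraries of its group had 177 and 207. Itfg1 and Lonp2, which were looked up after this value was seen, had 37.7 and 50.2 CPM in library 10, against 40.1 and 41.9 for Itfg1 and 64.4 and 73.6 for Lonp2 in libraries 11 and 12.

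Eno1b, a near copy of Eno1, was at 0.157 to 1.18 CPM in the 18 libraries of B6, 67 and 87 and at 39.9 to 101 CPM in the 6 D2 libraries. Its unique reads ran from 0 to 9 in the former and from 582 to 1490 in the latter. The difference between D2 and B6 WT in total reads was 6.55 ± 0.71 on the log2 scale (adjusted p = 7.31e-06, edgeR). Most of these reads in D2 were not unique: in WT libraries 19, 20 and 21, 1253 of 4078, 582 of 1741 and 668 of 1971 were. Their bearing on the Eno1 level and the Eno3 to Eno1 ratio in D2 was not tested.

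Library 16, in 87 CMD, held 1572 CPM of Ugp2 against 658 and 662 in the other libraries of its group, and 354 CPM of Pgm1 against 1123 and 643. D2 CMD library 22 had the highest share of reads in the 33 members of its group, 4.89%, and the other 2 had 3.34% and 3.38%. Aldoa under its other identifier, a short entry of 799 bases, was lower in every CMD library than in every WT library of its strain, with TPM from 10.9 to 29.6 in WT and from 0.284 to 22.6 in CMD.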
